A study of Mus musculus with 6 samples.

Results

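The motor neuron progenitor-like cells described here were chosen by a rule on single-cell counts. A kept cell belonged to them when it held at least 1 UMI (unique molecular identifier, 1 counted transcript molecule) of Olig2 and at least 1 of Sox2, and 0 UMIs of Nkx2-2, Neurod4, Mnx1, Isl1 and Foxa2. A cell was kept when at least 1000 genes were detected and at most 10% of its UMIs were mitochondrial. The rule found 2009 cells among 16225 kept cells of 6 libraries, or 12.4%, and they are called Olig2 Sox2 cells. They came from mouse embryonic stem cells that carry HB9::GFP, a reporter driven by the promoter of the motor neuron gene Mnx1, and that had been differentiated along a motor neuron protocol into embryoid bodies collected at day 6. The 3 groups of 2 libraries each were WT (wild type), DeltaSP (genotype lncMN2_SP-/-) and KO (genotype lncMN2-/-), with the mutants having been made with CRISPR/Cas9 at the noncoding lncMN2 locus. Each library was 1 clone, so a difference between clones and a difference between libraries cannot be told apart, and p-values measure the spread between these libraries.

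In the ventral neural tube, Sonic hedgehog from the floor plate divides progenitors into domains, and motor neurons arise from the domain marked by Olig2 together with Nkx6-1. Ventral to it lie p3 progenitors with Nkx2-2 and then the floor plate with Foxa2, and dorsal to it lie progenitors with Pax6 and Irx3 but no Olig2. Within the motor neuron progenitor domain, Notch signalling through Hes1 and Hes5 keeps cells dividing. Rising Neurog2, a proneural transcription factor, moves them towards cell cycle exit and on to Neurod4, Mnx1 and Isl1.

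The 6 libraries held 307 and 134 Olig2 Sox2 cells in WT, 298 and 515 in DeltaSP, and 344 and 411 in KO, with 1685207 to 7524878 UMIs in their sums. WT library 1 stood apart from the rest in depth: its Olig2 Sox2 cells had a median of 5156 UMIs and 2132 genes, against 13584.5 to 16424 UMIs and 4056 to 4564.5 genes in the other 5. The median mitochondrial share was 2.87% to 4.45%. Over all pairs of libraries 92 barcodes recurred, of which 38 belonged to kept cells and 0 to Olig2 Sox2 cells. No doublet caller was run.

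Olig2 and Sox2 chose the cells, so their levels are given as a description. The mean was 2.20 Olig2 UMIs per cell in WT library 1 and 5.61 to 7.03 in the other 5 libraries, and 1.66 and 4.03 to 5.25 Sox2 UMIs. Levels in summed cells are given as CPM, the UMIs of a gene per 1000000 UMIs, after scaling by the TMM method of edgeR (TMM-scaled CPM). Olig2 stood at 467 and 393 in WT, 384 and 403 in DeltaSP and 403 and 410 in KO, and Sox2 at 352 and 313, 280 and 290, and 258 and 298. Many cells lay near the thresholds. Just inside them, 32 to 128 cells per library held exactly 1 Olig2 UMI and 29 to 183 exactly 1 Sox2 UMI. Just outside, 93 to 405 Sox2 cells per library met every other condition with 0 Olig2 UMIs, and 66 to 195 Olig2 and Sox2 cells held exactly 1 UMI of the excluded genes.

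Genes that the rule did not read were checked against the label, and the ventral progenitor factors among them were found in every library. Olig1, the neighbour and relative of Olig2, was at 81.5 and 126 TMM-scaled CPM in WT, 122 and 128 in DeltaSP and 137 and 150 in KO. Nkx6-1, a homeodomain factor of ventral progenitors, was at 80.1 and 106, 88.9 and 112, and 97.6 and 99.2. Markers of cell types outside the neural tube and of interneurons were low: the 17 interneuron genes summed to 1.58 to 11.3 plain CPM (without TMM scaling), the 12 mesoderm genes to 7.07 to 26.1, the 10 endoderm genes to 3.74 to 6.91, the 10 endothelial and blood genes to 0.83 to 4.34 and the 8 neural crest genes to 17.0 to 29.2. Lists shared with neighbouring progenitors and glia were higher: the 18 glial and oligodendrocyte precursor genes, which include the progenitor gene Fabp7, summed to 737 to 1365 plain CPM, the 13 p3 and floor plate genes to 134 to 440 and the 16 dorsal and intermediate progenitor genes to 186 to 255. Gad1, Evx1, Cdh5, Ptprc, Sox17, Afp and Nanog had 0 UMIs in all 2009 cells. The 12 pluripotency genes summed to 39.8 to 82.4 plain CPM. RNA free in the droplets was read from cells with at least 4 detected mesoderm genes, after each cell had been thinned to 3000 UMIs. Of 66 such cells 0 had an Olig2 UMI, against 22.0% to 42.3% of the other kept cells, with median depths before thinning of 5010 to 17883.5 and 4600 to 15804 UMIs. With 4 to 24 mesoderm-marked cells per library, 0 cells allow an upper limit (Clopper-Pearson, 95%, counting error only) of 14.2% to 60.2%.

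Against p3 progenitor-like cells, chosen by Nkx2-2 and Sox2, the Olig2 Sox2 cells had more Neurog2, Sfrp2 and Mfng and less Nkx2-9 and Ntn1. Over whole lists, leaving out the genes that chose the cells and those under a mean of 20 plain CPM in both classes, 5 of 9 proneural and commitment genes and 5 of 21 Notch genes were higher in all 6 libraries, and 0 and 1 were lower. Of 4 such p3 and floor plate genes 0 were higher and 2 lower, and of 3 such motor neuron progenitor genes 0 were higher and 0 lower. These comparisons describe cells chosen on the same counts and carry no test. Neurog2 had a median over 6 libraries of 186 plain CPM (range 145 to 240) in Olig2 Sox2 cells and of 32.9 in Nkx2-2 Sox2 cells. The secreted Wnt antagonist Sfrp2 stood at 818 and 227, the glycosyltransferase Mfng, which modifies Notch, at 47.1 and 13.8, and the Notch effector Hes5 at 389 and 172. Dll1, a Notch ligand, stood at 20.4 and 10.6, and Pax6, the progenitor factor of the intermediate neural tube, at 47.1 and 18.7. Nkx2-9, the relative of Nkx2-2, ran the other way at 81.1 (range 26.7 to 184) and 288 (range 195 to 542), as did Ntn1, which encodes the guidance molecule netrin, at 86.3 and 171. Of 6664 genes with a mean of at least 20 plain CPM in either class, 354 (5.31%) were higher and 299 (4.49%) lower in Olig2 Sox2 cells in all 6 libraries. WT library 1 had 4 Nkx2-2 Sox2 cells, and over the other 5 libraries the sum of both counts was 1185 in place of 653, against 864 to 905 on leaving out each of the other libraries.

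Against progenitor-like cells with Pax6 and Sox2 but no Olig2 UMI, the Olig2 Sox2 cells had more Olig1, Nkx2-9 and Neurog2 and less Irx3, and they also differed in secreted factors. Of the neural progenitor list 10 of 17 genes were higher and 1 lower in all 6 libraries, of the dorsal and intermediate progenitor list 0 of 3 higher and 2 lower, and of the proneural list 1 of 13 higher and 2 lower. Olig1 stood at 125 plain CPM in Olig2 Sox2 cells and 29.7 in Pax6 Sox2 cells, Nkx2-9 at 81.1 and 18.3, and Neurog2 at 186 and 74.1. Irx3, the homeodomain factor that marks the domain dorsal to motor neuron progenitors, stood at 19.2 and 81.4, and Gas1, a hedgehog co-receptor, at 19.6 and 109. Ptch1, the hedgehog receptor and target, was at 226 and 162. Secreted factors were among those lower in Olig2 Sox2 cells: the growth factor Ptn stood at 41.6 and 145 and the chemokine Cxcl12 at 19.5 and 96.7. Lists that hold secreted factors along with receptors and other genes did not run this way as a whole. Of 9 genes of the Wnt list 4 were higher and 0 lower, and of 10 of the FGF and midkine list 4 were higher and 1 lower. H19, an imprinted noncoding RNA, was at 69.5 and 477. In all 6 libraries 327 (4.92%) of 6641 genes were higher and 285 (4.29%) lower. WT library 2 held 16 Pax6 Sox2 cells, and the sum of both counts, 612, became 920 over 5 libraries without it and 980 without WT library 1, against 817 to 885 without each of the others.

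The Foxa2 Sox2 cells, floor plate-like, differed from the Olig2 Sox2 cells in more genes. The signalling ligand Shh stood at 3.99 plain CPM in Olig2 Sox2 cells and 282 in Foxa2 Sox2 cells, Foxa1 at 1.21 and 50.3, the extracellular protein Vtn at 10.2 and 471 and Ntn1 at 86.3 and 617. Neurog2 was at 186 and 9.80, Olig1 at 125 and 13.1, Sp8, a zinc finger factor, at 51.5 and 3.42, and Hes5 at 389 and 99.0. Of 6800 genes, 1133 (16.7%) were higher and 1322 (19.4%) lower in Olig2 Sox2 cells in all 6 libraries.

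Of cells further along the motor neuron path, Neurod4 cells separated by Notch ligand and commitment messages. Mnx1 or Isl1 cells separated by cell cycle and neuronal messages. Compared with Neurod4 cells, which are committing precursors, Olig2 Sox2 cells had less Dll1 (20.4 and 148 plain CPM), Dll3 (18.0 and 189), Neurog1 (13.6 and 113), Insm1 (6.88 and 80.9), Gadd45g (221 and 905) and Hes6 (61.3 and 254). These genes encode Notch ligands, proneural and commitment factors. They had more Id3 (596 and 247), an inhibitor of proneural factors, Hes1 (54.5 and 26.3) and Ccnd2 (508 and 347), a cyclin of early cell cycle. Olig2 itself was at 404 and 533. Neurog2 was already at 186, against 471 in Neurod4 cells. Of 6548 genes, 762 (11.6%) were higher and 617 (9.42%) lower in all 6 libraries. Of 42 S phase genes 4 were higher and 0 lower, and of 53 G2 and M phase genes 3 were higher and 1 lower. Of 3 motor neuron progenitor genes, without the selecting genes, 0 were higher and 2 lower in Olig2 Sox2 cells. Of 22 genes of the Notch list, which holds Hes1 and Id3, 2 were higher and 10 lower. Compared with Mnx1 or Isl1 cells, which are neurons, Ccnd2 stood at 508 and 19.3, the proliferation gene Mki67 at 99.6 and 10.1 and Hes5 at 389 and 17.3. The neurofilament gene Nefl stood at 67.4 and 4243, the neuronal tubulin gene Tubb3 at 108 and 3941 and Slc18a3, the vesicular acetylcholine transporter, at 5.29 and 548. There 2877 (38.5%) of 7471 genes were higher and 3070 (41.1%) lower in all 6 libraries.

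**Figure D1:**
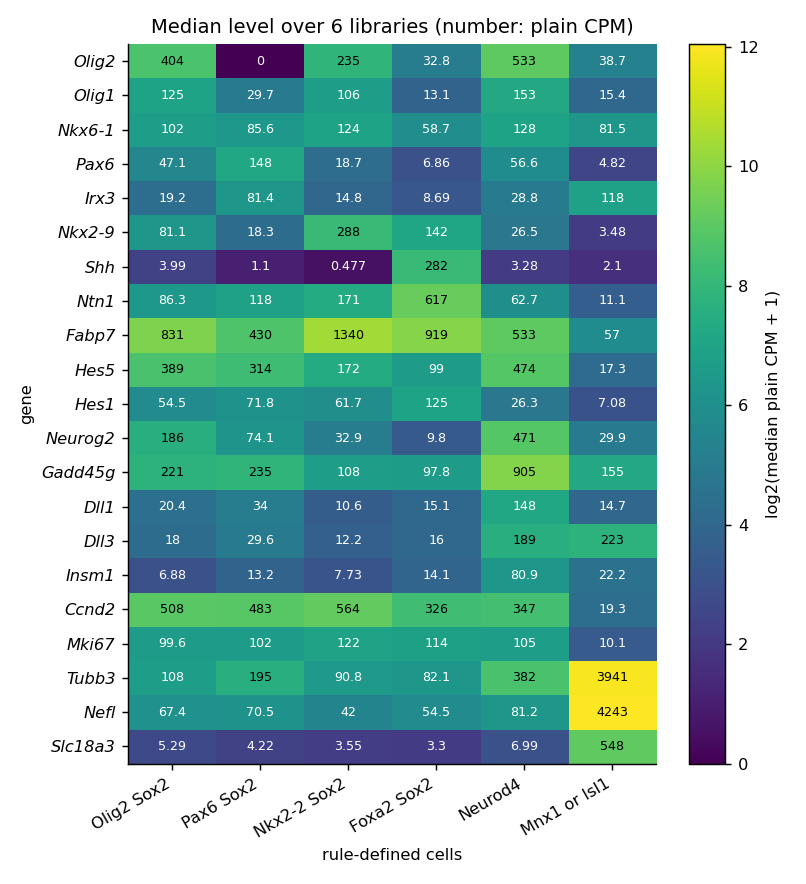
Median level over 6 libraries of 21 genes (vertical axis) in Olig2 Sox2 cells and in 5 neighbouring cell classes chosen by their marker UMIs (horizontal axis). Numbers are median plain CPM and colours the same value as log2(CPM + 1). Neurog2 is at 186 in Olig2 Sox2 cells and 471 in Neurod4 cells, Irx3 is high in Pax6 Sox2 cells (81.4), Nkx2-9 in Nkx2-2 Sox2 cells (288), Shh in Foxa2 Sox2 cells (282) and Nefl in Mnx1 or Isl1 cells (4243). Olig2 is 0 in Pax6 Sox2 cells by their definition.

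The Olig2 Sox2 cells were mixed in Neurog2. After thinning to 3000 UMIs per cell, a Neurog2 UMI was found in 33.0% and 25.4% of WT cells (95 of 288 and 34 of 134), 27.4% and 33.9% of DeltaSP cells (81 of 296 and 169 of 498) and 35.3% and 29.1% of KO cells (120 of 340 and 117 of 402). The 95% Clopper-Pearson intervals of these shares reached from 18.3% to 40.6%, and the genotypes overlapped. In Foxa2 Sox2 cells thinned the same way the share was 0% to 3.38%. Median depths before thinning were 5262.5 to 16424 UMIs in Olig2 Sox2 cells and 4264 to 14269 in Foxa2 Sox2 cells. Without thinning, 44.0% to 59.0% of Olig2 Sox2 cells had a Neurog2 UMI. Olig1 was found in 18.1% to 32.6% of thinned Olig2 Sox2 cells and 0% to 9.18% of Foxa2 Sox2 cells, and Pax6 in 9.80% to 15.7% and 0% to 3.45%. Olig1 was not particular to Olig2 Sox2 cells. It was found in 14.7% to 43.5% of Neurod4 cells. In Nkx2-2 Sox2 cells it was found in 11.8% to 32.9%, leaving out WT library 1 with its 2 thinned cells. Nkx6-1, a factor of wider ventral expression, was found in 17.0% to 26.0% and 12.03% to 26.6%. Dll1 was found in 4.48% to 7.43%, against 1.90% to 5.26% of Foxa2 Sox2 cells, and was the higher in Olig2 Sox2 cells in 5 of 6 libraries. Against Pax6 Sox2 cells, where its share was 1.12% to 12.9%, it was the lower in every library but WT library 1. Lhx3, a factor of newborn motor neurons, was found in 1.04% to 2.35%, against 0% to 3.45% of Foxa2 Sox2 cells, so no expression is read from its share. Hes5 was found in 71.9% of the cells of WT library 1 and in 39.6% to 52.4% of those of the other 5. In Mnx1 or Isl1 cells it was found in 2.20% to 10.6%. Like Olig1, Hes5 was not particular to Olig2 Sox2 cells. In Neurod4 cells its share was 30.4% to 67.3%, lower than in Olig2 Sox2 cells in both WT libraries and higher in all DeltaSP and KO libraries. In Pax6 Sox2 cells it was higher in KO library 2, at 64.3%, and lower in every other library.

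Olig2 Sox2 cells with a Neurog2 UMI held more of many commitment and immediate early genes than those without one. Leaving out Neurog2 and genes under 20 plain CPM, 8 of 11 genes of the proneural and commitment list and 8 of 9 immediate early genes were higher in all 6 libraries and 0 lower, while 0 of 53 G2 and M phase genes were higher and 15 lower. The stress and growth arrest gene Gadd45g had a median of 709 plain CPM over the 6 libraries in thinned cells with Neurog2 and 123 in those without. Neurog1 stood at 29.98 and 6.36, Dll1 at 40.8 and 12.005, Mfng at 84.4 and 33.9, Insm1 at 16.2 and 3.22 and Sox21, a Sox factor linked to progenitor exit, at 295 and 147. The transcription factor genes Egr1 (203 and 80.2), Fos (98.4 and 32.3) and Junb (105 and 34.5), induced rapidly by stimulation, and the stress response genes Atf3 (72.8 and 22.3), Ddit3 (66.3 and 20.4) and Chac1 (74.8 and 27.2) lay on the same side. So did Hes5 (500.9 and 324), Olig1 (170 and 116), Pax6 (62.8 and 41.0) and Olig2 (532 and 372), the last of which the rule used. All of these were higher in 6 of 6 libraries.

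Cells without a Neurog2 UMI held more of the secreted factors Ptn (44.5 against 6.29), Igfbp5 (68.1 against 16.7) and Cxcl12 (24.6 against 5.74), of H19 (89.9 against 8.22) and of Fabp7, the fatty acid-binding protein of radial progenitors (961 against 512). Ccnd1 stood at 29.6 in them against 16.7. Sox2 (296 with and 314 without), Nkx6-1 (87.7 and 107), Hes1 (53.5 and 57.5) and Tubb3 (108 and 99.2) did not keep 1 direction in all 6 libraries. In all, 410 (6.11%) of 6711 genes were higher and 386 (5.75%) lower with Neurog2 in all 6 libraries. The split uses a gene of the same counts, and is given with no test.

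**Figure D2:**
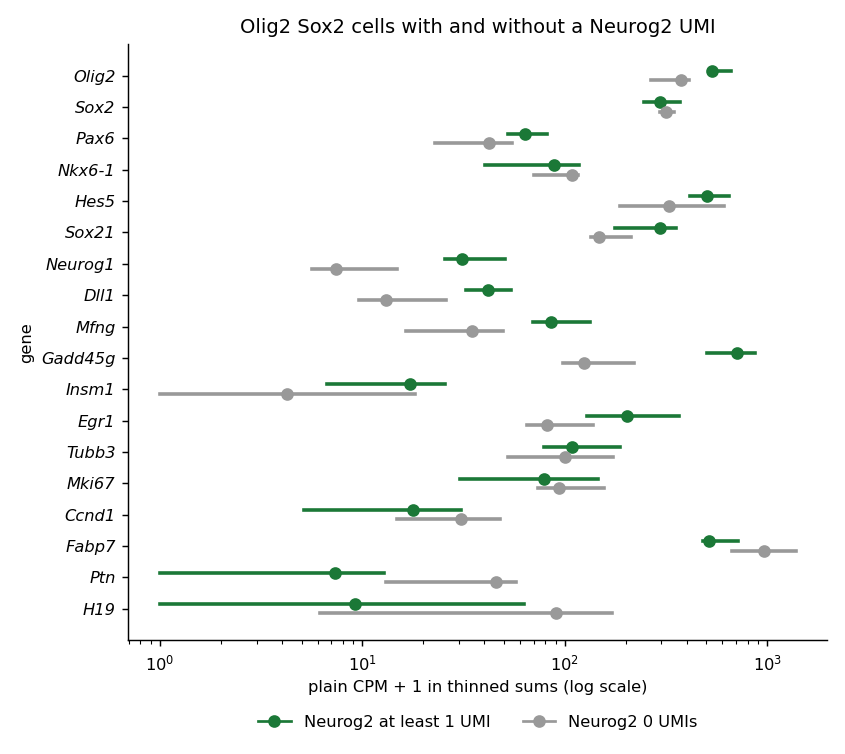
Plain CPM plus 1 (horizontal log axis) of 18 genes in Olig2 Sox2 cells with at least 1 Neurog2 UMI (green) and with 0 (grey), after thinning each cell to 3000 UMIs. Points are medians and bars the range over 6 libraries. Gadd45g lies apart at 709 and 123, and Ptn and H19 lie on the opposite side.

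Olig2 Sox2 cells held more messages of cell cycle genes than neurons did. After thinning to 3000 UMIs, the median Olig2 Sox2 cell held 21 to 28 UMIs of the 54 genes of G2 and M phase and 9 to 18 UMIs of the 43 genes of S phase. Mnx1 or Isl1 cells of the same libraries held 6 to 9 and 2 to 3, and Neurod4 cells 16 to 27 and 8 to 16. The other progenitor-like classes lay near the Olig2 Sox2 cells, with 21 to 27.5 and 10 to 20 in Pax6 Sox2 cells and 17 to 29 and 10 to 15 in Foxa2 Sox2 cells. Within the genotypes, the median of the G2 and M phase genes was 21 and 22 UMIs in WT, 23 and 24 in DeltaSP and 27 and 28 in KO. That of the S phase genes was 9 and 11, 15 and 15, and 16 and 18. The WT libraries were the lowest for both lists. The G2 and M phase medians of Foxa2 Sox2 cells were likewise lowest in WT, at 22 and 17, against 27 and 25 in DeltaSP and 29 and 29 in KO. Those of Mnx1 or Isl1 cells were 7 and 6, 9 and 9, and 9 and 9. In Pax6 Sox2 cells they were 21 and 22.5, 25 and 22, and 26 and 27.5. Ribosomal protein messages in Olig2 Sox2 cells summed to 232180 and 214099 plain CPM in WT, 158923 and 208834 in DeltaSP and 147690 and 130413 in KO. Their part in counts thinned to 1 total was not tested. This summary was added after the data had been seen.

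Olig2 Sox2 cells made up a larger share of the mutant libraries than of the WT libraries. The share of kept cells was 6.82% (95% Clopper-Pearson interval 6.10% to 7.60%) and 8.31% (7.01% to 9.77%) in WT, 13.1% (11.7% to 14.5%) and 14.3% (13.2% to 15.5%) in DeltaSP, and 16.2% (14.6% to 17.8%) and 19.6% (17.9% to 21.3%) in KO. The intervals cover counting error only. No library of 1 genotype overlapped with those of another. The mean was 7.57% ± 1.05 (SD, n = 2) in WT, 13.7% ± 0.88 in DeltaSP and 17.9% ± 2.41 in KO. KO was higher than WT by 10.3 percentage points, DeltaSP than WT by 6.11 and KO than DeltaSP by 4.19. In each pair of genotypes the two-sided exact permutation test gave p = 0.333, the smallest that 2 libraries against 2 allow.

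The other classes moved against them in part. Mnx1 or Isl1 cells were 34.5% and 30.9% of kept cells in WT, 22.3% and 15.5% in DeltaSP and 15.5% and 10.95% in KO, and Neurod4 cells 3.49% and 3.04%, 4.56% and 5.39%, and 7.19% and 5.76%. Shares sum to the whole, so a larger share of 1 class and a smaller share of another cannot be told apart. In edgeR's quasi-likelihood test on cell counts per class with Benjamini-Hochberg adjustment, Olig2 Sox2 cells differed between KO and WT by 1.24 on the log2 scale (adjusted p = 0.027). For DeltaSP against WT the difference was 0.85 (adjusted p = 0.112) and for KO against DeltaSP 0.39 (adjusted p = 0.381). Because a marker is found more readily in a deeper cell, the rule was also applied to cells thinned to 3000 UMIs. Cells with fewer UMIs than that were left out. This left 3563 cells in place of 4499 in WT library 1, but 1511 in place of 1612 in WT library 2. In KO it left 2073 in place of 2129 and 1998 in place of 2100. The shares were then 5.08% and 4.77% in WT, 7.57% and 8.09% in DeltaSP and 9.79% and 13.0% in KO, so the differences from WT became 6.46 points for KO and 2.90 for DeltaSP, and again no libraries overlapped.

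**Figure D3:**
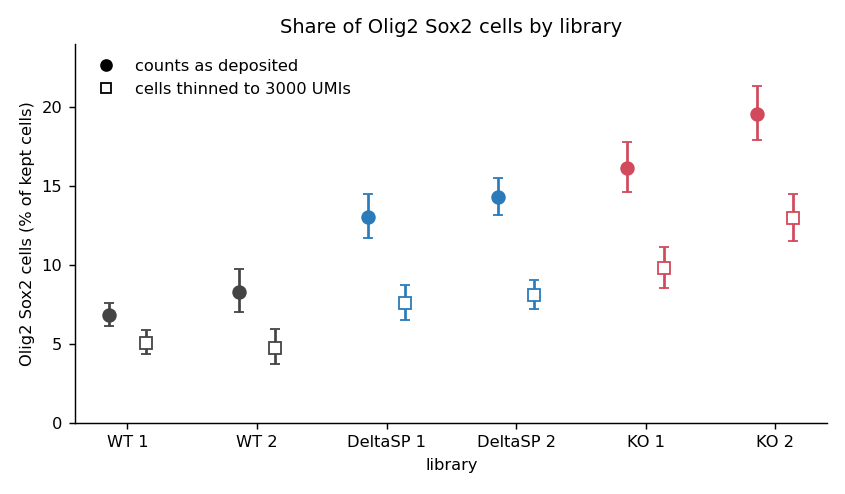
Share of kept cells that are Olig2 Sox2 cells (vertical axis, percent) in each of the 6 libraries (horizontal axis), with 95% Clopper-Pearson intervals. Filled circles use the deposited counts and open squares cells thinned to 3000 UMIs. WT libraries are lowest (6.82% and 8.31%) and KO libraries highest (16.2% and 19.6%) in both.

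Gene levels were compared between genotypes on UMIs summed over the Olig2 Sox2 cells of each library, for 11342 genes that passed edgeR's filter on low counts. A gene was called at an adjusted p under 0.05 (edgeR's quasi-likelihood test, Benjamini-Hochberg adjustment over all genes tested). KO against WT gave 337 called genes (2.97%), of which 27 (0.238%) were higher and 310 (2.73%) lower in KO. DeltaSP against WT gave 3 (0.0265%), and KO against DeltaSP gave 3 (0.0265%). In the last, 1 gene was higher (0.00882%) and 2 were lower (0.0176%) in KO. An unadjusted p under 0.05 was found for 17.2%, 11.9% and 5.81% of all tested genes in the 3 comparisons, and the libraries of the paired genotypes did not overlap for 46.8%, 42.7% and 38.4%. Both comparisons with WT rest on the same WT libraries. The KO against WT calls depended on single libraries: 22 were called without WT library 1, 987 without WT library 2, 201 without KO library 1 and 4 without KO library 2. Of the 37 called genes with values here, 7 were still called without WT library 1 (Hotairm1, Cdkn1c, Grb10, mt-Nd3, Polr2l, 5330434G04Rik and Nefl) and 3 without KO library 2 (Hotairm1, mt-Nd3 and 5330434G04Rik).

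The transcript taken as the target followed the KO label. 5330434G04Rik (mm10 chrX:105348282-105391776, minus strand) is taken as the annotated noncoding gene of the lncMN2 locus from knowledge of the study, since the labels do not name it, nor do they say which sequence DeltaSP lacks. It had 19 and 33 UMIs in the Olig2 Sox2 cells of WT, 51 and 89 in DeltaSP and 0 and 1 in KO. In TMM-scaled CPM that was 13.1 and 14.7, 9.92 and 12.4, and 0 and 0.142. Pooled over both libraries, the WT level in plain CPM was 143 times the KO level, with a 95% interval of 24.6 to 5764 that covers counting error only. Adjusted p was 0.0033 for KO against WT and 0.0037 for KO against DeltaSP. DeltaSP differed from WT by -0.32 on the log2 scale (adjusted p = 0.716). Of the 13 tested genes at or near the locus, 2 were called lower in KO: this transcript and the cytochrome oxidase subunit gene Cox7b. Cox7b fell from 547 and 439 TMM-scaled CPM in WT to 170 and 142 in KO. It is not among the genes named above as still called without WT library 1 or KO library 2. Whether its fall is tied to the locus was not tested.

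The factors that define the motor neuron progenitor passed no test between KO and WT. The list holds 6 genes, of which Olig2 and Sox2 chose the cells and are left out here. Of the other 4 genes 0 were called in either mutant by edgeR or by DESeq2, 2 had an unadjusted p under 0.05 in KO (Nkx6-2 and Pax6, in opposite directions) and 1 in DeltaSP (Pax6). Their median log2 fold change was 0.26 in KO and 0.17 in DeltaSP, where the medians of all tested genes were 0.02 and 0.00. Olig1 differed by 0.45 (SE 0.20, adjusted p = 0.301). Nkx6-1 differed by 0.07 (adjusted p = 0.895). Nkx6-2, its relative, stood at 15.9 and 12.02 TMM-scaled CPM in WT, 16.7 and 30.6 in DeltaSP and 19.5 and 52.5 in KO, a difference of 1.41 (SE 0.53, adjusted p = 0.211). Pax6 stood at 79.4 and 56.1, 36.6 and 51.8, and 41.9 and 36.3, a difference of -0.78 (adjusted p = 0.121).

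Patterning genes were not called by edgeR either. Of 17 hedgehog pathway genes 15 lay above 0 in KO, with a median of 0.32; edgeR and DESeq2 called 0, and 2 had an unadjusted p under 0.05. Ptch1 stood at 279 and 223 TMM-scaled CPM in WT, 218 and 195 in DeltaSP and 211 and 198 in KO, and the hedgehog target factor Gli1 at 13.1 and 12.9, 12.6 and 18.4, and 14.7 and 21.9. Of the 3 tested dorsal and intermediate progenitor genes edgeR called 0, and DESeq2 called 1 higher in KO and 1 lower in DeltaSP. Irx3 differed between KO and WT by 0.79 to 1.79 on the log2 scale on leaving out each library. It was found in 4.17% and 2.24% of thinned cells in WT, 4.73% and 5.22% in DeltaSP and 7.06% and 9.70% in KO. Of the 7 tested p3 and floor plate genes edgeR called 0 and DESeq2 called 1 in KO. Nkx2-9 stood at 31.1 and 57.0 in WT, 59.7 and 131 in DeltaSP and 92.3 and 161 in KO, with no overlap between WT and either mutant and an adjusted p of 0.114 for KO against WT.

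Proneural and Notch genes showed few calls. Of 17 tested proneural and commitment genes, 16 lay below 0 in KO and 16 in DeltaSP, with medians of -0.49 and -0.54. In DeltaSP edgeR and DESeq2 called 0, and 5 had an unadjusted p under 0.05. In KO 1 was called: Insm1, a zinc finger factor of neurogenic precursors, fell from 14.5 and 12.5 TMM-scaled CPM in WT (6.23 and 7.54 in DeltaSP) to 5.15 and 2.70, or by 1.79 on the log2 scale (adjusted p = 0.038). In cells thinned to 3000 UMIs its difference was 0.10 and the median of the list 0.10, and without WT library 1 the median was -0.05. Neurog2 stood at 237 and 155 in WT, 159 and 208 in DeltaSP and 224 and 153 in KO, with all 3 genotypes overlapping. Of 26 tested genes of the Notch list, which also holds the Id genes, edgeR called 1 in DeltaSP (Dlk1, described with the DeltaSP comparison). In KO it called 1, Id2, which is one of these Id genes. DESeq2 called 2 higher and 0 lower in KO, and 2 higher and 1 lower in DeltaSP. Id2 rose from 33.2 and 37.8 in WT (81.1 and 90.7 in DeltaSP) to 98.1 and 61.2, or by 1.15 (SE 0.25, adjusted p = 0.042). In thinned cells the Id2 difference was 0.20 (adjusted p = 0.844), and it was not called without any 1 of the 6 libraries. Hes5 stood at 723 and 272 in WT, 447 and 438 in DeltaSP and 336 and 301 in KO, WT library 1 being the highest. Dll1 lay between 18.2 and 23.5 in every library.

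Neuronal genes fell in KO. All 17 pan-neuronal genes lay below 0 in KO against WT with a median of -1.40, and 7 were called. In DeltaSP 16 lay below 0 with a median of -0.73; edgeR called 0, DESeq2 called 1, and 11 had an unadjusted p under 0.05. Nefl stood at 114 and 109 TMM-scaled CPM in WT, 67.5 and 66.6 in DeltaSP and 32.7 and 37.2 in KO, so that no library of 1 genotype overlapped with another. It fell by 1.67 on the log2 scale in KO (SE 0.15, adjusted p = 0.0035). Stmn2, a microtubule regulator, stood at 164 and 61.9, 41.8 and 50.3, and 22.2 and 30.8, WT library 1 being far above the rest, and fell by 2.04 (SE 0.38, adjusted p = 0.023). Tubb3 stood at 218 and 155, 119 and 93.7, and 58.8 and 79.9, and fell by 1.41 (adjusted p = 0.014). Of 11 tested motor neuron genes 4 were called lower (Nefl, Stmn2, Slc18a3 and the cofactor gene Lmo4) and 1 higher, Slit3, a guidance ligand. Slc18a3 fell from 15.2 and 10.2 in WT to 2.02 and 2.13. The number of pan-neuronal genes called was 1 without WT library 1, 2 without KO library 1, 0 without KO library 2 and 11 without WT library 2. That of motor neuron genes called lower was 1, 3, 0 and 4.

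The median count of neuronal messages per thinned cell was the same in Olig2 Sox2 cells and in Foxa2 Sox2 cells, a floor plate-like class. These medians are whole counts of 1 to 3 UMIs and cannot show a small difference. The summed levels were higher in Olig2 Sox2 cells in every library but KO library 2. Of 12 pan-neuronal genes 4 were higher and 1 lower in Olig2 Sox2 cells in all 6 libraries. The median thinned Olig2 Sox2 cell held 3 and 2 pan-neuronal UMIs in WT, 2 and 1 in DeltaSP and 1 and 1 in KO, and the median Foxa2 Sox2 cell held the same 3 and 2, 2 and 1, and 1 and 1. Mnx1 or Isl1 cells held 51 to 77. Summed over the list, Olig2 Sox2 cells were at 1416 and 979 plain CPM in WT, 865 and 662 in DeltaSP and 580 and 623 in KO. Foxa2 Sox2 cells were at 1009 and 728, 649 and 407, and 518 and 660, the WT library 1 value resting on 32 cells. The share of Mnx1 or Isl1 cells in the same libraries, 34.5% and 30.9%, 22.3% and 15.5%, and 15.5% and 10.95%, was likewise highest in WT. Within WT and within DeltaSP, the library with the larger share also had the larger sums in both classes. In KO the order was reversed: library 2, with the lower share, had sums of 623 and 660, and library 1 580 and 518. The part of this share in the neuronal levels was not tested. These values were added after the data had been seen.

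Most cell cycle genes lay above 0 in both mutants, and edgeR called none of them. Of 43 S phase genes 37 lay above 0 in KO, with a median of 0.35, and 33 did not overlap between the KO and WT libraries, against 46.8% of all tested genes. EdgeR called 0 of them, DESeq2 1, and 16 had an unadjusted p under 0.05 and a higher level in KO. Without WT library 2 edgeR called 15 higher and 1 lower, and without WT library 1 the median was 0.21. In DeltaSP 36 lay above 0 with a median of 0.32 and 30 did not overlap with WT, against 42.7% of all tested genes; edgeR called 0, DESeq2 1, and 11 had an unadjusted p under 0.05. Of 54 G2 and M phase genes 42 lay above 0 in KO, with a median of 0.20. EdgeR and DESeq2 called 0, and 8 had an unadjusted p under 0.05 and a higher level in KO. In DeltaSP 38 lay above 0 with a median of 0.12, and edgeR and DESeq2 called 0. There an unadjusted p under 0.05 was found for 6 higher and 2 lower genes, against 11.9% of all tested genes. The DeltaSP and WT libraries did not overlap for 23 of the 54, against 42.7% of all tested genes. Mki67 stood at 88.4 and 85.0 TMM-scaled CPM in WT, 99.6 and 98.5 in DeltaSP and 114 and 134 in KO, an order without overlap (0.52 for KO against WT, SE 0.15, adjusted p = 0.124). Pcna, the replication clamp, stood at 62.9 and 121, 127 and 87.9, and 150 and 178, with the WT and DeltaSP libraries overlapping. Ccnd1 stood at 11.7 and 12.5, 17.7 and 38.8, and 36.0 and 33.9 (adjusted p = 0.078).

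Cdkn1c, an imprinted gene for a cyclin-dependent kinase inhibitor (mm10 chr7:143458339-143461050, minus strand), fell in both mutants. It stood at 61.5 and 39.6 TMM-scaled CPM in WT, 7.59 and 5.72 in DeltaSP and 6.62 and 5.25 in KO. The fall on the log2 scale was 3.07 in KO (SE 0.28, adjusted p = 0.0037) and 2.91 in DeltaSP (SE 0.28, adjusted p = 0.013). The DeltaSP call was lost in thinned cells (adjusted p = 0.114) and without WT library 1 or either DeltaSP library, and the KO call without KO library 2 (adjusted p = 0.060). It was the 1 called gene among 21 G1 cyclins and kinase inhibitors. Grb10, an imprinted adaptor of growth factor receptors (mm10 chr11:11930508-12038683, minus strand), stood at 80.1 and 107 in WT, 23.0 and 9.91 in DeltaSP and 13.1 and 6.95 in KO. It fell by 3.27 in KO (SE 0.40, adjusted p = 0.010) and differed by -2.56 in DeltaSP (adjusted p = 0.137). The KO call was lost without KO library 2. Snrpn, another imprinted gene, rose from 84.3 and 85.5 in WT to 134 and 170 in KO (0.85, adjusted p = 0.043), a call lost without any 1 of the 6 libraries. Of 24 tested imprinted genes these 3 were called in KO and Cdkn1c and Dlk1 in DeltaSP, and the list median was 0.17 and 0.16. Cdkn1c and Grb10 were lower in the mutants outside Olig2 Sox2 cells too. In Mnx1 or Isl1 cells Cdkn1c stood at 336 and 332 plain CPM in WT, 58.7 and 42.0 in DeltaSP and 46.2 and 66.9 in KO. Grb10 stood there at 24.8 and 23.1, 8.12 and 4.98, and 5.13 and 6.18.

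Some Hox cluster transcripts, noncoding RNAs among them, fell in KO, and 1 fell in DeltaSP. Hotairm1, a noncoding RNA of the HoxA cluster (mm10 chr6:52156902-52162119, plus strand), stood at 271 and 260 TMM-scaled CPM in WT, 67.5 and 54.6 in DeltaSP and 40.1 and 23.6 in KO. It fell by 3.07 in KO (SE 0.25, adjusted p = 0.0033) and by 2.12 in DeltaSP (SE 0.24, adjusted p = 0.029). The KO call held without each library in turn, while the DeltaSP call was lost without WT library 1 or either DeltaSP library. Hoxb5os fell from 278 and 159 in WT (64.6 and 18.8 in DeltaSP) to 15.4 and 4.12. Hoxa5, a factor of cervical position, fell from 390 and 190 (135 and 57.1 in DeltaSP) to 77.2 and 48.5, or by 2.20 (adjusted p = 0.033). Of 17 tested genes of paralog groups 1 to 5 and their antisense RNAs, 4 were called lower in KO and 1 in DeltaSP, with medians of -0.45 and -0.31. Of 6 genes of groups 6 to 10, 1 was called lower in KO: Hoxb9, from 44.2 and 30.3 (16.5 and 7.68 in DeltaSP) to 8.82 and 3.55. That list's median was -1.14 in KO and -0.95 in DeltaSP. Without WT library 1 or KO library 2, 1 gene of groups 1 to 5 and 0 of groups 6 to 10 were called in KO. Whether the counting used strand is not given in the sources used here, so an antisense RNA and the gene it overlaps may share reads.

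Messages of ribosomal proteins and other short transcripts made up much of the remaining falls in KO. Of 81 tested ribosomal protein genes 36 were called lower, and the list median was -1.18 in KO and -0.44 in DeltaSP, where edgeR called 0, DESeq2 called 5 and 28 had an unadjusted p under 0.05. Rps29 stood at 3698 and 4269 TMM-scaled CPM in WT, 951 and 2140 in DeltaSP and 615 and 533 in KO, and fell by 2.79 in KO (SE 0.36, adjusted p = 0.010). The mitochondrial complex I gene mt-Nd3 stood at 544 and 803, 151 and 206, and 66.5 and 89.5, and fell by 3.11 (SE 0.27, adjusted p = 0.0033), a call that held without each library in turn. The shortest 10% of genes by transcript length (1126 genes, at most 1410 bases) had a median of -0.19 in KO and held 159 of the 310 falls. The WT libraries themselves differed there by a median of 0.23 (library 1 minus library 2). With the trend of each library with transcript length removed, 30 ribosomal protein genes were called, the list median was -0.86, and mt-Nd3 differed by -1.72. Of the ribosomal protein genes 0 were called without WT library 1, 0 without KO library 2 and 6 without KO library 1. The part of library preparation or transcript length in these falls was not tested.

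The rises in KO were fewer than the falls. Il4ra, the interleukin 4 receptor, rose from 8.98 and 12.9 TMM-scaled CPM in WT (23.9 and 27.4 in DeltaSP) to 28.5 and 32.1, or by 1.43 on the log2 scale (SE 0.24, adjusted p = 0.016). Lbh, a transcriptional cofactor gene, rose from 18.6 and 20.03 (44.2 and 42.2) to 38.6 and 43.3, and Rpa1, a subunit of the protein that coats single-stranded DNA in replication, from 68.4 and 95.7 (146 and 165) to 158 and 171. Slc38a10, an amino acid transporter gene, rose from 26.2 and 42.3 (68.9 and 63.2) to 75.2 and 91.5. In each of these 4 the DeltaSP libraries lay above both WT libraries. The calls of all 4 were lost without WT library 1 and without KO library 2, and in thinned cells that of Rpa1 was kept and those of Il4ra, Lbh and Slc38a10 were lost. Of the 27 rises 11 lay on chromosome 11, which also held 14 of the falls. The 945 tested genes of that chromosome had a median of 0.35 in KO and 0.32 in DeltaSP, with 79.7% and 82.5% of them above 0, and the other genes had a median of 0.00 in KO. The chromosome 11 median in KO was 0.33 to 0.37 on leaving out each library.

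Cd2, a surface adhesion molecule of lymphocytes, was found in the mutants and not in WT. It had 0 and 0 UMIs in the Olig2 Sox2 cells of WT, 30 and 44 in DeltaSP and 41 and 80 in KO. Against a floor of 3 UMIs over both WT libraries, its level was at least 14.6-fold higher in KO (adjusted p = 0.010) and at least 8.15-fold higher in DeltaSP (adjusted p = 0.192). The KO call was lost without WT library 1 (adjusted p = 0.056) and without KO library 2 (adjusted p = 0.127). Interferon-induced genes were spread widely between clones of 1 genotype. The summed level of the 20 genes was 33.8 and 30.3 plain CPM in WT, 653 and 248 in DeltaSP and 63.9 and 234 in KO. Of 17 tested genes all lay above 0 in both mutants, with medians of 2.75 in KO and 4.59 in DeltaSP. EdgeR called 0 in either, DESeq2 called 0 in KO and 8 in DeltaSP, and 6 and 16 had an unadjusted p under 0.05. Isg15, an interferon-induced modifier protein, had 0 and 1 UMIs in WT, 509 and 258 in DeltaSP and 21 and 170 in KO.

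**Figure D4:**
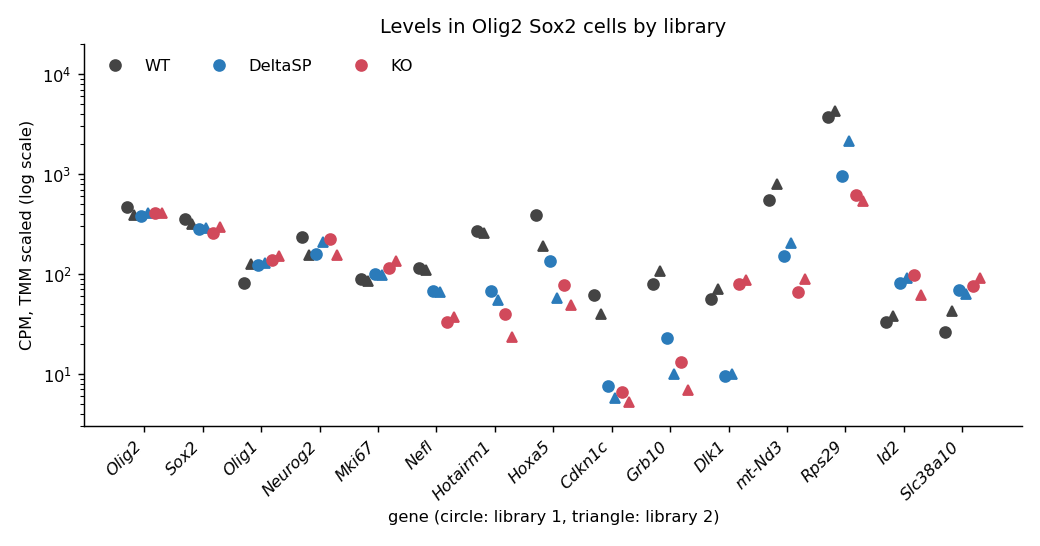
TMM-scaled CPM (vertical log axis) of 15 genes in the Olig2 Sox2 cells of each library, circles for library 1 and triangles for library 2 of WT (dark grey), DeltaSP (blue) and KO (red). Olig2 and Sox2 lie close together in all 6 libraries, Nefl, Hotairm1, Cdkn1c and mt-Nd3 are highest in WT, and Dlk1 is low in DeltaSP only (9.53 and 10.1).

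DeltaSP differed from WT and from KO most clearly in Dlk1. This imprinted gene for a Notch-related transmembrane protein (mm10 chr12:109452823-109463336, plus strand) stood at 56.6 and 70.8 TMM-scaled CPM in WT, 9.53 and 10.1 in DeltaSP and 78.5 and 86.4 in KO, with no overlap between genotypes. It fell by 2.71 on the log2 scale in DeltaSP against WT (SE 0.19, adjusted p = 0.0014) and was higher in KO than in DeltaSP by 3.07 (SE 0.17, adjusted p = 0.00026). In thinned cells the differences were -2.64 and 2.75, with adjusted p of 0.118 and 0.089. Besides Dlk1, Cdkn1c and Hotairm1 were called in DeltaSP against WT. 5330434G04Rik and Ifitm3 were called in KO against DeltaSP, Ifitm3 being a membrane protein gene induced by interferon. It stood at 184 and 170 in WT, 490 and 352 in DeltaSP and 111 and 120 in KO and was lower in KO than in DeltaSP by -1.87 (SE 0.19, adjusted p = 0.017). That call was lost without either KO library and without DeltaSP library 1. The Dlk1 call against WT was lost without DeltaSP library 1 (adjusted p = 0.076), and that against KO held without each library in turn. Without DeltaSP library 1 edgeR called 0 genes between DeltaSP and WT, and without WT library 2 it called 77. Among genes not called, mt-Nd3 differed by -1.92 between DeltaSP and WT (adjusted p = 0.091), and Nefl by -0.94 between KO and DeltaSP (adjusted p = 0.158). Dlk1 was lowest in DeltaSP in Mnx1 or Isl1 cells too. There it stood at 96.8 and 204 plain CPM in WT, 22.8 and 2.74 in DeltaSP and 67.9 and 48.6 in KO.

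**Figure D5:**
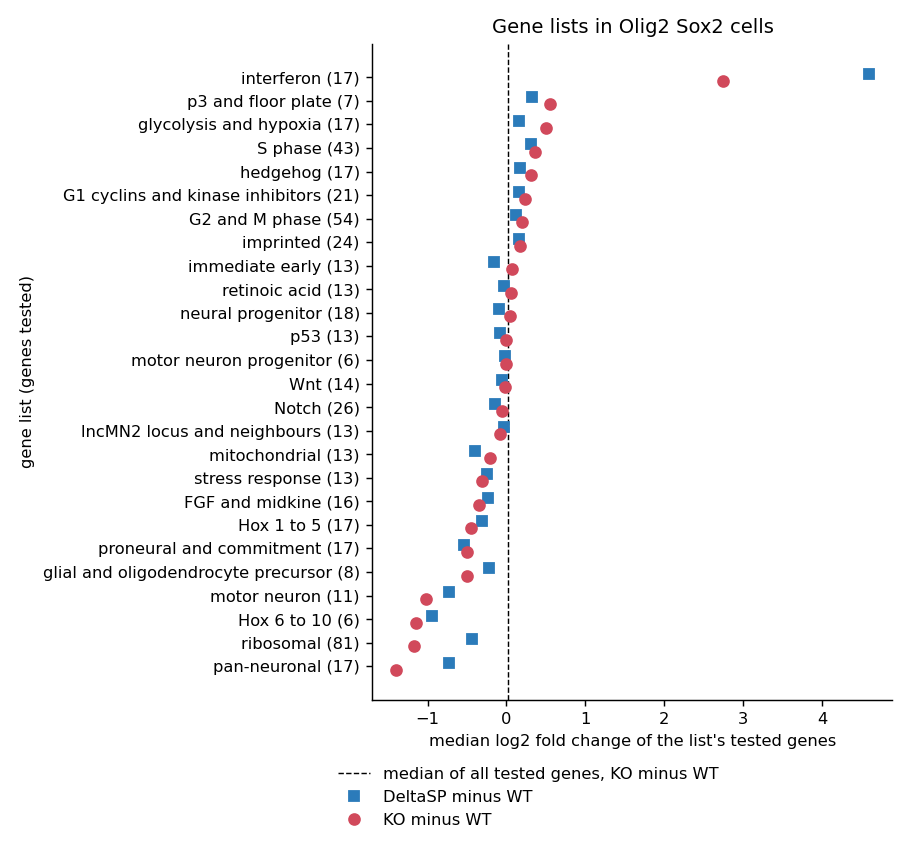
Median log2 fold change (horizontal axis) over the tested genes of each list with at least 5 of them (vertical axis, number tested in brackets) in Olig2 Sox2 cells, for KO minus WT (red circles) and DeltaSP minus WT (blue squares). The comparisons share the WT libraries. Pan-neuronal genes lie lowest in KO (-1.40) and interferon genes highest in both (2.75 and 4.59), while the motor neuron progenitor list, drawn with the selecting genes Olig2 and Sox2 in it, lies at -0.01 in both.

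Whether a genotype difference had another size in Olig2 Sox2 cells than in Pax6 Sox2 cells of the same libraries was tested as an interaction over 10068 genes. It was called for 3 genes in KO against WT (0.0298%), for 1 in DeltaSP against WT (0.00993%) and for 4 in KO against DeltaSP (0.0397%). Egr1, an immediate early transcription factor, stood at 108 and 73.6 plain CPM in the Olig2 Sox2 cells of WT, 121 and 87.2 in DeltaSP and 171 and 84.1 in KO. In Pax6 Sox2 cells it stood at 170 and 113, 115 and 91.7, and 81.8 and 12.8, being lowest in KO. The signed log2 fold change of KO against WT was higher in Olig2 Sox2 cells by 2.001 (adjusted p = 0.00082), the larger change being the lower KO level in Pax6 Sox2 cells. Peg3, an imprinted zinc finger gene, was at 262 and 138, 152 and 92.4, and 141 and 70.6 in Olig2 Sox2 cells and at 260 and 134, 315 and 214, and 301 and 92.9 in Pax6 Sox2 cells. The log2 fold change of DeltaSP against WT differed by -1.19, with lower DeltaSP means in Olig2 Sox2 cells and higher ones in Pax6 Sox2 cells. Against Nkx2-2 Sox2 cells in place of Pax6 Sox2 cells these differences were 0.00085 for Egr1 and -0.07 for Peg3. The Pax6 Sox2 sums rested on 97 and 16 cells in WT, 31 and 93 in DeltaSP and 50 and 43 in KO. In cells thinned to 3000 UMIs 0 interactions were called in all 3 comparisons, and on leaving out each library the number ranged from 3 to 59, 1 to 34 and 5 to 28.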

How the data were processed

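Single-cell 3' RNA libraries were made from day 6 embryoid bodies with a Chromium V3 kit per the series design text and V3.1 per the labels. The authors deposited unnormalised UMI counts for each gene and barcode, made with Cell Ranger 4.0 on mm10, per the submitters' processing notes, with Ensembl release 93 annotation per the series design text. Over 24215 deposited barcodes the library totals were 24191242 to 49061693 UMIs.

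Counts of Olig2 Sox2 cells were summed per library and tested with edgeR 4.0.16 (R 4.3.3): TMM, filterByExpr, quasi-likelihood F test, all 6 libraries in 1 fit with genotype as the only term, Benjamini-Hochberg adjustment at 0.05. A 3-count floor and 95% intervals cover counting error only. Intervals and exact permutation tests used scipy 1.17.1. Alternatives were DESeq2 1.42.0 size factors and Wald test (without independent filtering), a replicate block, all genes without the low-count filter, thinned cells or sums, a looser cell filter (500 genes, 20% mitochondrial), Olig2 of at least 2 UMIs, the 10% of cells with most UMIs left out, a transcript length offset and each library left out. Interactions added library and cell class as terms. Same-numbered libraries did not deviate together: correlations across genes were -0.04 for WT and DeltaSP, 0.15 for WT and KO and -0.08 for DeltaSP and KO, so replicate numbers were not taken as pairs. On simulated counts for KO against WT (11342 genes), 50% of 100 genes changed 2-fold and 89% of 100 changed 4-fold were recovered, with 6 false calls.

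The members and lists were chosen with earlier results of these data known. Genes were named by rule: the 10 largest rises and falls among called genes without overlap (20 CPM or more where higher), the 4 smallest p of each list, a fixed set of progenitor genes, the 5 smallest p where fewer than 5 passed, 5 per direction for interactions, and 8 per direction against neighbouring cells. From these, genes of the groups described were taken. The other genes with values against neighbouring cells, in the Neurog2 comparison and at 0 UMIs come from the lists and were chosen after their values were seen. Positions are those of the mm10 annotation.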

Additional observations from a re-analysis of the deposited data

Results flagged for a closer look

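Each of these 7 genes had a genotype difference of another size in Olig2 Sox2 cells than in Pax6 Sox2 cells of the same libraries, by edgeR's test of the interaction (values are the signed log2 fold change in Olig2 Sox2 cells minus that in Pax6 Sox2 cells). For KO against WT, the value was 2.001 for Egr1 (adjusted p = 0.00082), 2.12 for the glutathione-degrading enzyme gene Chac1 (adjusted p = 0.043) and 0.97 for the immediate early gene Ier2 (adjusted p = 0.048). Chac1 stood at 30.3 and 32.8 plain CPM in the Olig2 Sox2 cells of WT and 27.4 and 35.2 in KO, and at 62.4 and 96.4 and 13.0 and 20.8 in Pax6 Sox2 cells, so the larger change lay in Pax6 Sox2 cells. For DeltaSP against WT, the value for Peg3 was -1.19.

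For KO against DeltaSP, the value was 2.02 for Stmn2, 1.40 for Egr1, 1.23 for the linker histone gene H1f0 and 0.99 for the immediate early gene Jun. Stmn2 stood at 44.2 and 47.8 plain CPM in the Olig2 Sox2 cells of DeltaSP and 23.8 and 35.0 in KO, and at 88.2 and 101 and 13.0 and 16.0 in Pax6 Sox2 cells, where the change was the larger. H1f0 stood at 336 and 348 plain CPM in the Olig2 Sox2 cells of DeltaSP and 410 and 497 in KO, and at 1045 and 505 and 395 and 381 in Pax6 Sox2 cells. Stmn2 rested on 40, 119, 10 and 10 UMIs in the Pax6 Sox2 cells of DeltaSP libraries 1 and 2 and KO libraries 1 and 2. With thinned cells none of these interactions was called by edgeR.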

How the results depend on the processing

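The share differences kept their direction under every alternative run. The share of KO exceeded that of WT by 8.59 to 12 points on leaving out each library, DeltaSP that of WT by 5.36 to 6.85 and KO that of DeltaSP by 2.48 to 5.90, and edgeR on cell counts called the KO against WT difference (1.24 on the log2 scale). Counts of called genes moved more. KO against WT gave 1054 without the filter on low counts, 536 with DESeq2's Wald test and 4 to 987 on leaving out each library. DeltaSP against WT gave 457, 96 and 0 to 77, and 8 with the replicate block, 5 without the 10% of cells with most UMIs and 17 with sums thinned to the smallest library. KO against DeltaSP gave 347, 15 and 2 to 6, and 1 with thinned cells. The replicate block gave 312 calls for KO against WT, 277 of them shared with the 337, and 2 for KO against DeltaSP; replicate numbers are no pairing here.

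Interaction counts for KO against WT, DeltaSP against WT and KO against DeltaSP were 28, 5 and 22 without the filter, 1, 0 and 0 with DESeq2, 0, 0 and 0 with thinned cells, 5, 4 and 7 against Nkx2-2 Sox2 cells, and 3 to 59, 1 to 34 and 5 to 28 without each library. Genes of 1 direction in all libraries numbered 301 against Pax6 Sox2 cells and 1168 against Foxa2 Sox2 cells with thinned cells, and 864 to 1185 against Nkx2-2 Sox2 cells and 817 to 980 against Pax6 Sox2 cells without each library. They numbered 2636 to 3427 against Foxa2 Sox2 cells. Thinning left WT library 1 with no Nkx2-2 Sox2 cell under that setting, so no value was possible there.

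Between KO and WT, thinned cells turned Insm1 to 0.10, Neurog2 to 0.15 and Dll1 to 0.78, and leaving out the 10% of cells with most UMIs turned Dll1 to 0.064 and Dlk1 to -0.048. Leaving out each library gave -0.36 to 0.28 for Neurog2, -0.11 to 0.30 for Nkx6-1, -0.85 to 0.078 for Hes1 and -1.18 to 0.23 for Hes5. Against Nkx2-2 Sox2 cells the KO against DeltaSP interaction was -0.49 for Egr1, -0.27 for Jun, 0.82 for Stmn2 and 0.15 for H1f0, that of KO against WT 0.00085 for Egr1, 0.018 for Ier2 and 0.38 for Chac1, and that of DeltaSP against WT -0.07 for Peg3, none of them called. The KO against DeltaSP interaction of Stmn2 with thinned cells was -0.48. The cause of these changes was not tested. Of the 37 called KO against WT genes given, 20 of 35 with a value stayed called with thinned cells, 32 with the block and 36 with DESeq2. Depth per cell in WT library 1, the number of cells in WT library 2 and 1 clone per library limit every comparison with WT.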
